A study of Mus musculus with 35 samples.

Results

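The normal partition of poly(A) RNA between nucleus and cytoplasm was read from N2a cells, a mouse neuroblastoma line, that had received a non-targeting siRNA pool. These were 7 of the 35 libraries of the series, chosen by the fraction and siRNA in their labels: 4 of nuclei and 3 of cytoplasm. The cells were N2a Flp-In cells with the doxycycline-dependent activator rtTA, and came from 2 stable lines, both used here without doxycycline. The mEx5 line carries an inducible FLAG-Chtop cDNA without exon 5, and the pEx5 line carries the cDNA with exon 5. Nuclei were measured in 2 biological replicates of each line, and cytoplasm in 2 of the mEx5 line and 1 of the pEx5 line. Control cultures came from 2 culture dishes, had new medium at 24 h and were harvested at 72 h. Trypsinised cells were counted, lysed in a buffer with the mild detergent Nonidet P-40, and spun to part a nuclear pellet, which by the protocol also takes cell debris, from the lysate. Nuclei and cytoplasm of a culture therefore come from the same cells. Libraries of total lysate from the same cultures (4), and of cells given a Chtop siRNA without doxycycline (knockdown) or with it (rescue), with 8 nuclear and cytoplasmic libraries in each condition, are used for comparison.

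In a growing cell, most messenger RNAs are spliced and exported soon after transcription and are then translated and degraded in the cytoplasm, while a number of long noncoding RNAs stay at the chromatin or in nuclear bodies. Messenger RNAs with introns that remain after transcription, called detained introns, are also held back in the nucleus. The ratio of an RNA between the fractions therefore depends on how fast it is made, exported and destroyed in each compartment. Because each library is scaled to its own total, the ratio says how large a share of the fraction's RNA a gene takes, relative to the typical gene, and not how many molecules lie in each compartment. With no spike-in named in the labels, less RNA per nucleus and fewer nuclei in the pellet cannot be told apart.

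Counts summed to between 14420143 and 28705620 per nuclear library and between 22399279 and 31500283 per cytoplasmic library. Levels are given in CPM, a library's counts per its own total, unless the authors' length-scaled RPKM is named. Transcripts of the mitochondrial genome took 0.701 to 1.53% of nuclear and 1.9 to 2.09% of cytoplasmic counts. Chtop, the target of the siRNA in the other conditions, lay at 94.9 to 129 CPM in control nuclei and 137 to 148 CPM in control cytoplasm, against 57.3 to 70.6 and 17.7 to 31.2 CPM in knockdown nuclei and cytoplasm. Of 16 markers of neuroblastoma and sympathetic neurons, 11 were at 1 RPKM or more in all 7 libraries, among them the transcription factors Phox2a, Hand2 and Gata2, while Nefl and Nefm were close to 0. Summed marker levels were 1.20 to 1.38 RPKM in nuclei and 1.12 to 1.38 RPKM in cytoplasm for 6 fibroblast genes, with Col1a2, Col3a1 and Lum at 0. For 5 macrophage genes they were 6.33 to 7.65 RPKM in nuclei and 0.14 to 0.19 RPKM in cytoplasm, with the nuclear sum nearly all from Cd68 and with Ptprc and Adgre1 at 0.

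The deposited count table holds 9239 genes, and the RPKM table shows how they were chosen. Every count-table gene was above 3 RPKM in all 35 libraries, with a lowest value of 3.01, and all 9239 genes that meet this limit are in the table. A gene confined to 1 compartment falls under the limit in the other and is left out. Of 10685 genes above 3 RPKM in all 4 control nuclei, 1446 are outside the count table, and 651 of these were at or under 3 RPKM in all 3 control cytoplasms. Of 10257 genes above 3 RPKM in all 3 control cytoplasms, 1018 are outside it, and 121 of these were at or under 3 RPKM in all 4 control nuclei. Results are given first for the count table and then for RNAs that only the RPKM table holds.

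Nuclei and cytoplasm differed for most genes of the count table. At an adjusted p under 0.05 (edgeR's quasi-likelihood test, Benjamini-Hochberg over 9239 genes), 3125 genes (33.8% of those tested) were higher in nuclei and 3336 (36.1%) were lower. The changes were not symmetric in size. At least 2-fold differences were called for 1011 genes higher in nuclei (10.9%) and 243 lower (2.63%), and at least 4-fold differences for 173 higher and 0 lower. Log2 ratios of nuclei over cytoplasm ran between -1.51 and 8.37, with the 5th percentile at -0.90, the median at -0.028 and the 95th percentile at 1.45. The median SE was 0.11. In plain per-library values, every nuclear library lay above every cytoplasmic one for 3006 genes (32.5%) and below every cytoplasmic one for 3259 (35.3%). The split of calls depends on the scaling. On the authors' RPKM scale, which also counts reads of genes outside the count table, the same genes were 0.40 lower in nuclei on the log2 scale than in the count fit (median difference -0.40), and limma called 1671 of them higher and 5364 lower. That scaling was chosen after seeing the data. It turns the medians of several gene lists described below to the other side of 0: other DNA-binding factors to -0.11, solute carriers to -0.13, clock genes to -0.29, immediate-early genes to -0.073 and mRNA export genes to -0.36.

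**Figure D1:**
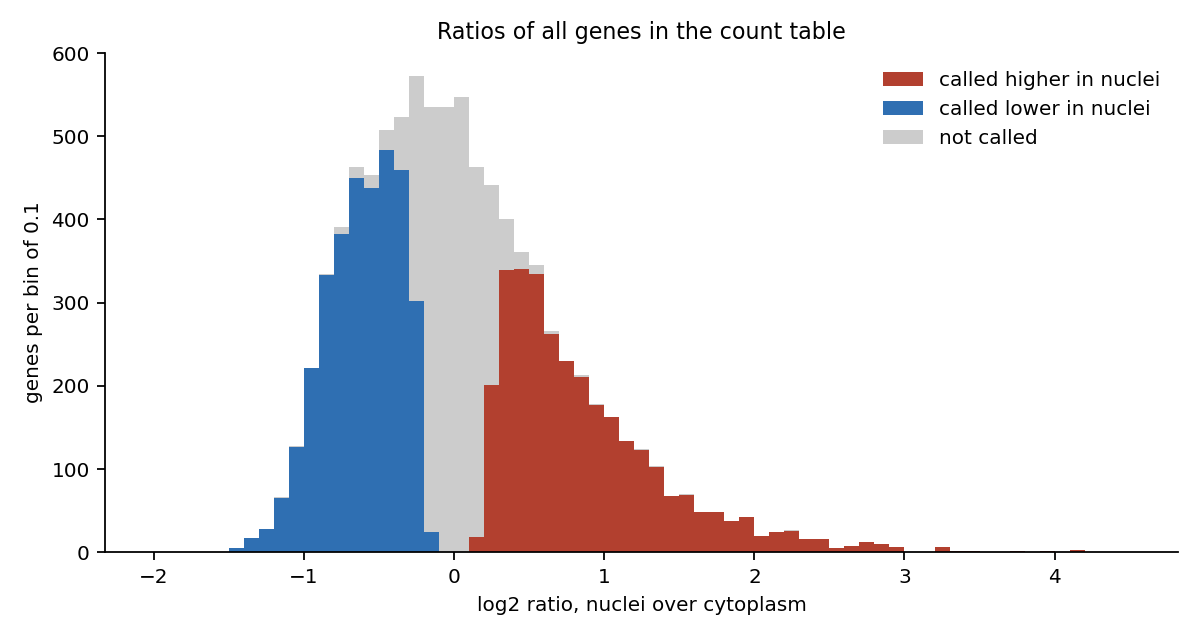
Log2 ratio of nuclei over cytoplasm (x axis) for the genes of the count table in control cells, in bins of 0.1 (y axis, genes per bin), stacked and coloured by the edgeR call at an adjusted p under 0.05. The right tail reaches past a log2 ratio of 4, with 5 genes above 4.5 not drawn, while the left tail ends at -1.51.

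Most of these calls were also made in libraries of the other conditions, which share no library with the control comparison. The calls are not fully independent, because 1 fit of all 23 libraries gave the spread used for each condition. In the 8 knockdown libraries the same fit called 3367 genes higher in nuclei (36.4% of those tested) and 3578 lower (38.7%), and in the 8 rescue libraries 3280 (35.5%) and 3464 (37.5%). Of the 3125 genes higher in control nuclei, 2770 were called higher and 10 lower under knockdown, and 2678 were called higher and 18 lower in rescue libraries. Those shared calls were 88.6% of the control list and 82.3% of the knockdown list, and 85.7% of the control list and 81.6% of the rescue list. Of the 3336 genes lower in control nuclei, 2929 were called lower and 26 higher under knockdown, and 2800 were called lower and 26 higher in rescue libraries. All 243 genes at least 2-fold lower had a ratio under 0 in both other conditions. The ratios of the mEx5 and pEx5 lines were not called different for any gene (0 of 9239 by edgeR, with 257 genes at an unadjusted p under 0.05; 0 and 282 by DESeq2). The 5th and 95th percentiles of the differences were -0.36 and 0.40 on the log2 scale. The median SE of that difference was 0.22, so small differences between the lines were not detectable with 1 pEx5 cytoplasmic library.

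Long noncoding RNAs of nuclear bodies were among the highest ratios. Malat1, an RNA of nuclear speckles (chromosome 19, 5795690 to 5802672, minus strand, mm10), had 943, 1016, 792 and 817 CPM in nuclei, against 50.5, 56.9 and 44.4 CPM in cytoplasm. In this and the following sentences the nuclear values are those of mEx5 replicates 1 and 2 and pEx5 replicates 1 and 2, and the cytoplasmic values those of mEx5 replicates 1 and 2 and pEx5 replicate 1. The groups of Malat1 were far apart, with a 18.3-fold difference (log2 ratio 4.19, SE 0.14, edgeR adjusted p = 8.5e-12). Neat1, the scaffold of paraspeckles (chromosome 19, 5824708 to 5845478, minus strand), had 251, 281, 176 and 130.2 CPM in nuclei, against 16.8, 24.9 and 14.4 CPM in cytoplasm. Neat1 varied more, and both nuclear pEx5 libraries were under both mEx5 libraries (log2 ratio 3.55, SE 0.37, edgeR adjusted p = 4.7e-07). Of 16 long noncoding RNAs known mainly from the nucleus, 5 were in the count table, and 4 of these were higher. Beside Malat1 and Neat1 these were Rian, an imprinted RNA of the Dlk1-Dio3 region, at 30.2, 27.8, 30.5 and 32.8 CPM in nuclei, against 7.32, 7.71 and 9.51 CPM in cytoplasm (log2 ratio 1.85, SE 0.18), and Tug1 at 79.7, 120.1, 58.6 and 82 CPM in nuclei, against 23.8, 27.9 and 25.9 CPM in cytoplasm (log2 ratio 1.71, SE 0.24). Pvt1 was not called, with 10.8, 10.7, 10.9 and 9.18 CPM in nuclei, against 9.82, 8.13 and 9.16 CPM in cytoplasm and a log2 ratio of 0.20 (SE 0.13). Among RNAs described from the cytoplasm, Dancr was higher in nuclei at 0.99 (SE 0.27), with 4.4 ± 1.3 CPM in nuclei and 2.28 ± 0.349 CPM in cytoplasm (SD, n = 4 and 3), and 2900097C17Rik was not called, at 0.13 (SE 0.12). By annotated class, 55 of 79 long intergenic RNAs of the count table were higher in nuclei and 6 lower, with a median log2 ratio of 1.05, against -0.035 for 8923 protein-coding genes. The shares over all genes tested were 33.8% higher and 36.1% lower. Of 24 unclassified loci (TEC in the annotation) 22 were higher and 0 lower, and of 16 antisense genes 11 and 0. The 5 genes with a log2 ratio above 4.5 were named for their values. Gm26917, an annotated long intergenic RNA (chromosome 17, 39843013 to 39846341, plus strand), had 8246, 8397, 8129.9 and 5860.0 CPM in nuclei, against 20.1, 19.9 and 27.1 CPM in cytoplasm (log2 ratio 8.37, SE 0.34, edgeR adjusted p = 3.1e-11), which is 0.586 to 0.84% of nuclear counts. Gm47673, Gm22993 and Gm12940 lay at 5.90, 5.04 and 4.69, and the pseudogene Olfr289-ps1 at 5.05. Reads of a gene and its antisense partner cannot be told apart where the counting is not stated to use strand.

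**Figure D2:**
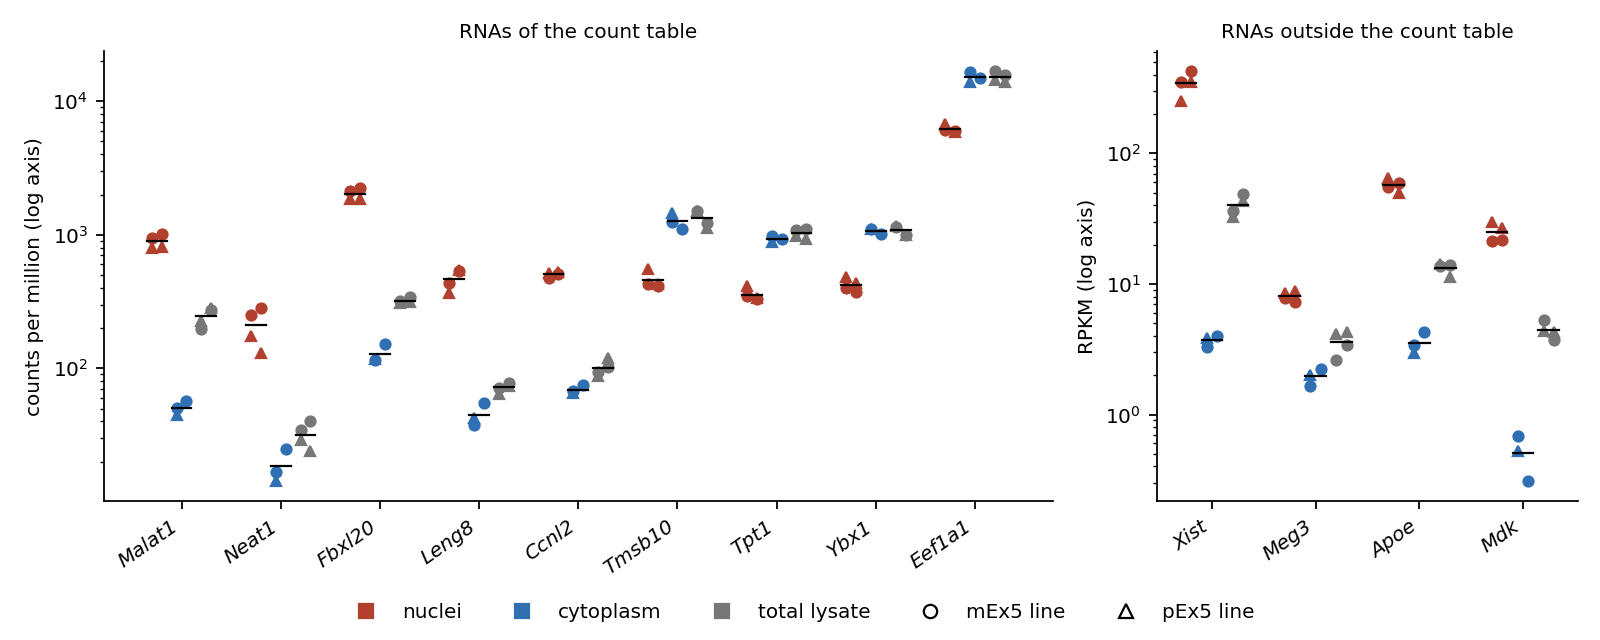
Level per library (y axis, log scale) of 9 RNAs of the count table in CPM (left) and 4 RNAs outside it in RPKM (right). Points are libraries, circles the mEx5 and triangles the pEx5 line, bars are means, with nuclei in red, cytoplasm in blue and total lysate in grey. For each of these RNAs no nuclear library lies within the range of the cytoplasmic ones.

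RNAs outside the count table extended the range of ratios at both ends. Of 45154 genes outside it, 5698 had at least 0.5 RPKM in at least 3 of the 7 control libraries, and limma on log2(RPKM + 0.1) called 2766 of them higher in nuclei (48.5%) and 868 lower (15.2%). These counts are set in part by the filter, because 1635 of the 5698 were under 0.5 RPKM in every cytoplasmic library and passed through nuclei alone. Among the 3103 with at least 0.5 RPKM in all 3 cytoplasmic libraries, 830 were higher and 860 lower. That set was chosen by cytoplasm among genes outside the count table, and being outside it depends on nuclear levels too. Of its genes, 1977 lay above the median RPKM ratio of the count-table genes, a comparison that this choice also affects. Xist, the noncoding RNA that coats the inactive X chromosome (chromosome X, 103460366 to 103483254, minus strand), had 353, 424, 249.8 and 354 RPKM in nuclei, against 3.27, 3.99 and 3.82 RPKM in cytoplasm. No other RNA of the nuclear list was parted so far on this scale (log2 ratio 6.52, SE 0.24, limma adjusted p = 1.2e-05), and RPKM ratios lie 0.40 below those of the count fit for the typical gene. Xist stayed under 4 RPKM in every control cytoplasm, and was at 442 to 656 RPKM in the 4 knockdown nuclei against 3.88 to 5.2 in the 4 knockdown cytoplasms, and at 371 to 494 against 2.52 to 3.52 RPKM in the rescue libraries. Total lysate of control cells held 32.8 to 48.6 RPKM of Xist. Kcnq1ot1, an imprinted antisense RNA, had 1.49, 1.52, 1.32 and 1.25 RPKM in nuclei, against 0.02, 0.03 and 0.03 RPKM in cytoplasm. Meg3 had 7.76, 7.3, 8.59 and 8.81 RPKM in nuclei, against 1.65, 2.22 and 2.02 RPKM in cytoplasm (log2 ratio 1.97, SE 0.13, limma adjusted p = 6.6e-05), and Mirg, from the same imprinted region, 8.74, 8.72, 6.6 and 11.4 RPKM in nuclei, against 1.71, 1.56 and 1.99 RPKM in cytoplasm (log2 ratio 2.24, SE 0.21, limma adjusted p = 2.2e-04). Firre, an X-linked noncoding RNA, had 2.6, 3.3, 1.46 and 1.99 RPKM in nuclei, against 0.44, 0.93 and 0.35 RPKM in cytoplasm. Each of these was above its highest cytoplasmic value in all 4 nuclear libraries. At the other end, 6 of the 10 lowest called ratios were of pseudogenes, whose reads may come from related genes. Pseudogenes were not particular to this end. Of 591 processed pseudogenes outside the count table, 361 were called higher in nuclei and 33 lower. Among the 138 of them with at least 0.5 RPKM in all 3 cytoplasmic libraries, 32 were higher and 29 lower. Sms-ps had 10.4, 12.6, 6.21 and 14.1 RPKM in nuclei, against 85.2, 71.8 and 64 RPKM in cytoplasm (log2 ratio -2.76, SE 0.30, limma adjusted p = 4.3e-04). Mrip-ps had 0, 0, 1.08 and 2.09 RPKM in nuclei, against 11.2, 11.3 and 14.9 RPKM in cytoplasm (log2 ratio -5.39, SE 0.78, limma adjusted p = 0.0017), and Gm7887 was listed at 0 in all 4 nuclei, against 16, 3.79 and 19.6 RPKM in cytoplasm. The groups of all 3 were apart, and the lowest ratio in the count table was -1.51.

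The protein-coding mRNAs of the count table with the highest ratios differed widely in cytoplasmic level. Their high nuclear levels follow in part from the filter, because a count-table gene is above 3 RPKM in cytoplasm too. Fbxl20, a substrate adaptor of a ubiquitin ligase (chromosome 11, 98082556 to 98150403, minus strand), had 2130.0, 2222, 1842 and 1859 CPM in nuclei, against 114, 152 and 117 CPM in cytoplasm. It was the most abundant of the 15 named highest genes in nuclei (log2 ratio 4.01, SE 0.14, edgeR adjusted p = 8.5e-12), and lay at 321 CPM in total lysate. Dennd6b, a DENN-domain protein that acts on Rab GTPases, had 173, 215, 147 and 173 CPM in nuclei, against 9.38, 14.2 and 8.96 CPM in cytoplasm (log2 ratio 4.11, SE 0.19, edgeR adjusted p = 1.1e-10). Dmpk, the myotonic dystrophy protein kinase, had 75.1, 87.5, 70.1 and 86 CPM in nuclei, against 4.11, 6.63 and 4.81 CPM in cytoplasm (log2 ratio 3.97, SE 0.22, edgeR adjusted p = 4.1e-10). Both were highest in mEx5 replicate 2, and neither fraction overlapped the other. Leng8 had 439, 531, 367 and 544 CPM in nuclei, against 37.3, 54.6 and 42.2 CPM in cytoplasm (log2 ratio 3.42, SE 0.20, edgeR adjusted p = 1.0e-09). The kinases Lmtk3 and Map4k2 had log2 ratios of 3.45 (SE 0.16) and 3.11 (SE 0.14), with 307 ± 36.3 CPM in nuclei and 28 ± 2.43 CPM in cytoplasm for Lmtk3 (SD, n = 4 and 3). Tmem191c, Necab3, Fam193b and Ankrd24 lay at 3.75, 3.28, 3.28 and 3.21. Ahnak, which encodes a very large scaffold protein, had 622, 1200.2, 555 and 1077 CPM in nuclei, against 87.9, 111 and 85.4 CPM in cytoplasm (log2 ratio 3.24, SE 0.44). Its nuclear values were higher in replicate 2 than in replicate 1 of both lines, and so was the count-weighted mean transcript length of the nuclear libraries, at 3591, 3717, 3518 and 3759 bases. The cytoplasmic libraries averaged 3069, 3161 and 3180.0 bases. A part of library make-up in the Ahnak values was not tested. Olfr289-ps1 and Ppp4r1l-ps (3.39) are pseudogenes, whose reads may come from related genes.

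Genes with detained introns were the list with the highest median among mRNAs. Of 32 genes known for such introns, 30 were higher in nuclei, 23 of them at least 2-fold, and 0 were lower, with a median log2 ratio of 1.41 against -0.028 over all genes tested. Over all genes, 33.8% were higher, 10.9% at least 2-fold, and 36.1% were lower. Ccnl2, a cyclin tied to splicing, had 476, 510.4, 518 and 527 CPM in nuclei, against 67.2, 75 and 65.7 CPM in cytoplasm (log2 ratio 2.90, SE 0.13, edgeR adjusted p = 5.9e-11). Ogt, the enzyme that adds O-GlcNAc to nuclear and cytoplasmic proteins and whose own retained intron answers to that modification, had 253, 289, 236 and 268 CPM in nuclei, against 40.8, 58.7 and 43 CPM in cytoplasm (log2 ratio 2.51, SE 0.14, edgeR adjusted p = 3.8e-10). Chkb and Nktr lay at 2.47 (SE 0.12) and 2.27 (SE 0.10). The lowest member was Tra2b at 0.012 (SE 0.17), with 197, 149, 177 and 125 CPM in nuclei, against 169, 141 and 168 CPM in cytoplasm, so its fractions overlapped. These genes were listed with earlier results of the data known, and their median was 1.58 in knockdown and 1.67 in rescue libraries.

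Genes of the splicing machinery did not move as 1 block. Among SR family splicing regulators, 17 of 22 were higher in nuclei and 1 lower (median 0.74). Srrm3, Srek1 and the speckle protein Srrm2 had log2 ratios of 1.89 (SE 0.088), 1.88 (SE 0.13) and 1.45 (SE 0.14), while Srsf9 was lower at -0.89 (SE 0.068). Among hnRNP genes, 8 of 30 were higher in nuclei and 13 lower (median -0.26), against 33.8% higher and 36.1% lower over all genes. Hnrnph1 had 1103, 888, 913 and 677 CPM in nuclei, against 418, 371 and 402 CPM in cytoplasm, and Ptbp2, the neuronal paralogue of Ptbp1, a log2 ratio of 1.34 (SE 0.14). In contrast Pcbp2 had 409.7, 371, 401 and 363 CPM in nuclei, against 895, 969.9 and 914 CPM in cytoplasm (log2 ratio -1.25, SE 0.083). Core spliceosome genes leaned to the cytoplasm, where 26 of 47 were lower in nuclei and 9 higher (median -0.43). The Sm protein gene Snrpd2 lay at -1.06 (SE 0.21), whereas Prpf39, a U1-associated factor, lay at 2.72 (SE 0.11) and Prpf40b at 1.61 (SE 0.14). Of 31 mRNA export genes, 10 were higher and 12 lower, shares near the 33.8% and 36.1% over all genes. Nxf1, the main mRNA export receptor, had 334, 357, 307 and 309.5 CPM in nuclei, against 144, 149.9 and 148 CPM in cytoplasm (log2 ratio 1.15, SE 0.088). Thoc1 and Thoc2, subunits of the THO complex, were higher at 1.92 (SE 0.20) and 1.28 (SE 0.11), and Sarnp was lower at -0.91 (SE 0.16). Among nonsense-mediated decay and exon junction factors 9 of 15 were higher in nuclei and 4 lower, with the endonuclease gene Smg6 at 2.30 (SE 0.15) and the exon junction gene Magoh at -0.90 (SE 0.24).

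mRNAs of nuclear regulators were more often higher than lower in nuclei. Of 205 Zfp zinc finger genes tested, 137 were higher and 16 lower (median 0.54), and 133 more lay outside the count table. Zfp692 had 172, 192, 179 and 174 CPM in nuclei, against 26.7, 35.7 and 23 CPM in cytoplasm (log2 ratio 2.75, SE 0.14, edgeR adjusted p = 2.0e-10), and Zfp931 was the lowest at -0.85 (SE 0.21). Reads of near-identical zinc finger genes may be split between them. Of 106 chromatin modifiers and remodellers 62 were higher and 14 lower (median 0.45). Hdac10, a deacetylase, lay at 2.43 (SE 0.15), the DNA demethylase gene Tet2 at 2.00 (SE 0.23) and the histone methyltransferase gene Kmt2d at 1.92 (SE 0.19). Among other DNA-binding factors 40 of 92 were higher in nuclei and 15 lower, with Irf9 at 2.16 (SE 0.14) and its interferon-signalling partner Stat2 at 1.34 (SE 0.17). Long mRNAs of channels and synaptic scaffolds were higher in 12 of 15 cases and lower in 0 (median 1.23). Ank3, the ankyrin of the axon initial segment, had 174, 255, 137 and 200.0 CPM in nuclei, against 51.1, 56.1 and 45.3 CPM in cytoplasm (log2 ratio 1.96, SE 0.22), and the sodium channel gene Scn8a lay at 1.90 (SE 0.12). Nrxn2 was not called, at -0.16 (SE 0.10). In the mitosis list 7 of 35 were higher in nuclei and 15 lower, against 33.8% higher and 36.1% lower over all genes. Mki67, a large surface protein of mitotic chromosomes, had 1053, 1643, 942 and 1404 CPM in nuclei, against 302, 259 and 291 CPM in cytoplasm (log2 ratio 2.15, SE 0.25), and Cenpf lay at 1.61 (SE 0.22). Ube2c, a small ubiquitin-conjugating enzyme of the same process, had 114, 107, 143 and 113 CPM in nuclei, against 288, 262 and 309 CPM in cytoplasm (log2 ratio -1.28, SE 0.12).

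Some small nucleolar RNAs of the count table were higher in nuclei even where the mRNAs that hold them in their introns were not. A box H/ACA snoRNA is cut from an intron of its host and guides RNA modification in the nucleolus. It ends in ACA and 3 more bases, the capitals in the first 4 sequences, which were printed because they sit in introns of mRNAs with a lower ratio than their own. The capitals of Rnu1a1, a U1 snRNA gene, mark the bases that pair with the start of an intron. All 5 were read 5′ to 3′ from GENCODE M21 transcripts on mm10, at chr14:75847905-75848034, chr5:107905177-107905308, chr16:18240717-18240842, chr13:51648199-51648334 and chr11:87422867-87423030. Gm25777 is on the minus strand and the others on the plus strand.
Snora31: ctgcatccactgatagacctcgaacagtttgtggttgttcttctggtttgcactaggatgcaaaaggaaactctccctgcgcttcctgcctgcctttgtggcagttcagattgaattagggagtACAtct
Gm22270: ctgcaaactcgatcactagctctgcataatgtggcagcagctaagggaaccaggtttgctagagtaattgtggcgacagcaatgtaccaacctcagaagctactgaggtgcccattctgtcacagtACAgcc
Gm25777: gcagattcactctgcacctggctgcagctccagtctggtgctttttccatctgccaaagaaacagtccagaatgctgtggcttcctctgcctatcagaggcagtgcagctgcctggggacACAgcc
Gm22806: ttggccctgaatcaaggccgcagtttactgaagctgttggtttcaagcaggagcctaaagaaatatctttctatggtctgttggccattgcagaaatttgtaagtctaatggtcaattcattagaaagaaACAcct
Rnu1a1: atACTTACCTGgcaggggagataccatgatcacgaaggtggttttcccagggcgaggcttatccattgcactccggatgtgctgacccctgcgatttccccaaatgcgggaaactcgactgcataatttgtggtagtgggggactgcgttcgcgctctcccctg

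Of 1507 snoRNA transcripts in the annotation, 276 (18.3%) have ACA before the last 3 bases. Counts of these short RNAs were low, and reads over them may come from the host's unspliced transcript. Snora31, in an intron of Tpt1, had 80, 144, 71 and 79 counts in nuclei, against 7, 20 and 7 in cytoplasm (log2 ratio 3.66, SE 0.37, edgeR adjusted p = 3.5e-07). Tpt1 itself, the mRNA of the translationally controlled tumour protein, was lower in nuclei at -1.36 (SE 0.14). Gm22270, in Rpl5, had 37, 53, 29 and 27 counts in nuclei, against 4, 5 and 2 in cytoplasm (log2 ratio 3.94, SE 0.40, edgeR adjusted p = 4.3e-07), with Rpl5 at 0.65 (SE 0.10). Gm25777, in Ranbp1, had 37, 32, 15 and 22 counts in nuclei, against 5, 6 and 8 in cytoplasm (log2 ratio 2.35, SE 0.51), with Ranbp1 at -1.22 (SE 0.20). Gm22806, in Cks2, had 22, 29, 12 and 18 counts in nuclei, against 1, 12 and 5 in cytoplasm (log2 ratio 2.20, SE 0.57), with Cks2 at -0.96 (SE 0.16). Without mEx5 replicate 2 of the cytoplasm, the ratio of Gm22806 was 3.33. In the count table, 6 of 8 snoRNAs were higher and 0 lower, against 33.8% and 36.1% of all genes tested, and the groups of Gm26397, in Tomm20, overlapped. Outside it, limma called 35 of 81 snoRNAs higher and 0 lower, against 48.5% and 15.2% of all genes tested there. Among those with at least 0.5 RPKM in all 3 cytoplasmic libraries, 3 of 9 were higher and 0 lower, with a median log2 RPKM ratio of -0.18. Rnu1a1 had 16, 68, 15 and 21 counts in nuclei, against 3, 12 and 9 in cytoplasm (log2 ratio 2.13, SE 0.39), and depth limits all of these values. Rn7s1, a 7SL RNA of the signal recognition particle, had 1935, 1652, 788 and 1018 counts in nuclei, against 596, 803 and 781 in cytoplasm (log2 ratio 1.26, SE 0.24). Spliced noncoding snoRNA hosts were higher in 9 of 14 cases and lower in 0 (median 0.60), led by Snhg17 at 2.41 (SE 0.12) and Snhg20 at 1.96 (SE 0.22). Gas5 had 423, 312, 248 and 203 CPM in nuclei, against 104, 116 and 92.4 CPM in cytoplasm (log2 ratio 1.52, SE 0.17), with nuclear values lower in both pEx5 than in both mEx5 libraries.

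Other RNAs annotated inside introns were set against their hosts in the same way. On the RPKM scale, 560 genes with no exon overlap lay within an intron of a protein-coding host of the count table on the same strand, and 534 had a higher ratio than the host. Of these 560, 345 were under 0.5 RPKM in every cytoplasmic library and passed the filter through nuclei. Among the 76 with at least 0.5 RPKM in all 3 cytoplasmic libraries, 59 were above their host, with medians of 0.94 for the intronic genes and -0.38 for the hosts. All 16 unclassified loci and all 14 sense intronic RNAs in that subset lay above their host, against 6 of 11 protein-coding genes and 8 of 16 processed pseudogenes. In both of the last classes the median lay below that of the hosts, at -0.91 against -0.35 for protein-coding genes and -0.88 against -0.44 for processed pseudogenes. Reads of the host's unspliced transcript and of a separate RNA in its intron cannot be told apart in these tables.

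**Figure D3:**
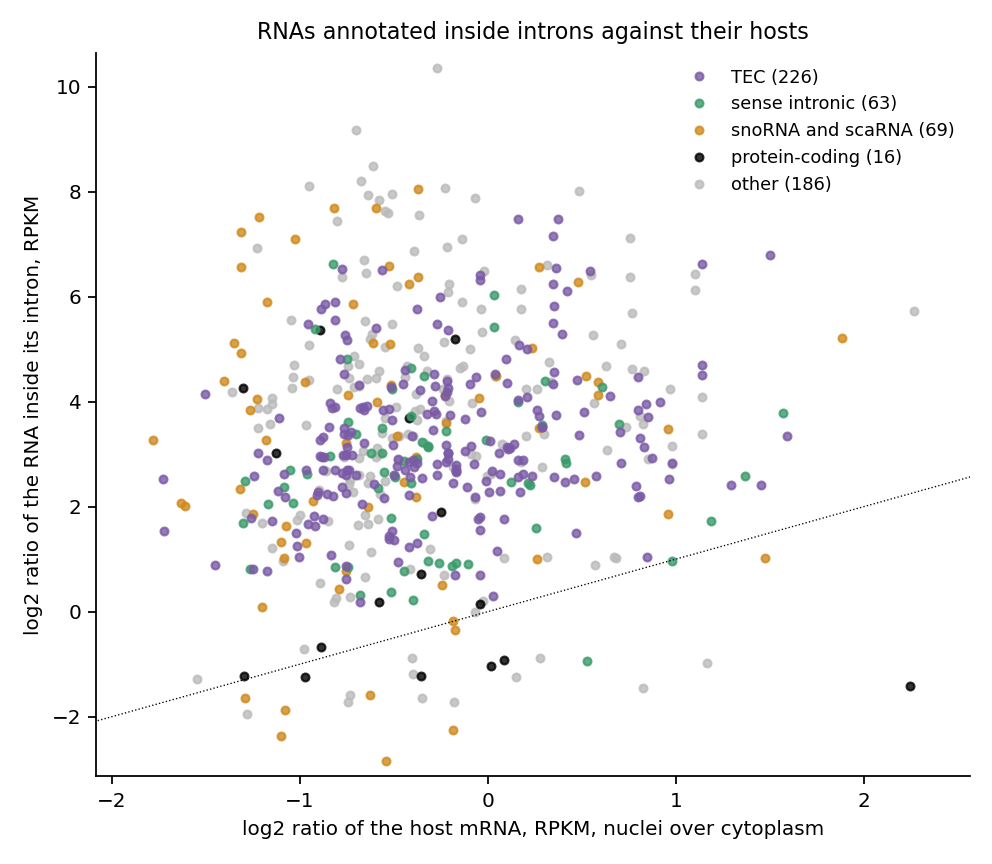
Log2 ratio of nuclei over cytoplasm on the RPKM scale for RNAs annotated inside an intron (y axis) against that of the host mRNA (x axis), 1 point per gene, coloured by annotated class with the number of genes. The dotted line marks equal ratios, and 534 of 560 points lie above it.

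Among the gene lists, the lowest medians were those of mRNAs for translation, cytoskeleton and the respiratory chain. The lowest ratio was that of Tmsb10, a small protein that binds actin monomers, with 427, 416, 556 and 425 CPM in nuclei, against 1253, 1106 and 1445 CPM in cytoplasm (log2 ratio -1.51, SE 0.19, edgeR adjusted p = 4.0e-06). Its nuclear level was 2.85-fold lower. Tpt1 had 348, 329, 410.3 and 335 CPM in nuclei, against 977, 934 and 877 CPM in cytoplasm (log2 ratio -1.36, SE 0.14, edgeR adjusted p = 5.3e-07). Ybx1, an RNA-binding protein that packages mRNA, had 396, 374, 487 and 433 CPM in nuclei, against 1101, 1016 and 1108 CPM in cytoplasm (log2 ratio -1.35, SE 0.11, edgeR adjusted p = 4.9e-08). In each of these 3 the groups were well apart, and the highest nuclear library was pEx5 replicate 1. Mtpn, Sh3bgrl, Ap3s1, Eef1e1 and the ferritin heavy chain gene Fth1 lay at -1.36, -1.37, -1.35, -1.35 and -1.32. Vamp7-ps and Rpl15-ps3, at -1.49 and -1.41, are pseudogenes near-identical to cytoplasmic mRNAs, so that their reads are uncertain. Without the pEx5 cytoplasmic library Rpl15-ps3 lay at -0.88.

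Of 85 cytosolic ribosomal protein genes, 69 were lower in nuclei, 19 of them at least 2-fold, and 5 were higher (median -0.88). Over all genes tested, 36.1% were lower, 2.63% at least 2-fold, and 33.8% were higher. Together these mRNAs took 3.41 to 4.29% of nuclear and 6.73 to 7.64% of cytoplasmic counts. Rps7 had 150.0, 271, 419 and 342 CPM in nuclei, against 813, 784 and 646 CPM in cytoplasm (log2 ratio -1.33, SE 0.21, edgeR adjusted p = 3.1e-05), and its lowest nuclear library was mEx5 replicate 1. Rpl12 was higher, with 267, 297, 312 and 264 CPM in nuclei, against 192, 201 and 156 CPM in cytoplasm (log2 ratio 0.71, SE 0.13, edgeR adjusted p = 1.1e-04), but was not called on the RPKM scale (0.28). Other mRNAs with known or proposed terminal oligopyrimidine (TOP) starts, a class whose translation is set by nutrient signals, were lower in 23 of 24 cases (median -0.89). Eef1a1, the elongation factor that brings tRNAs to the ribosome, had 6125, 5995, 6718 and 5866 CPM in nuclei, against 16523, 15004 and 13905 CPM in cytoplasm (log2 ratio -1.25, SE 0.10, edgeR adjusted p = 3.1e-08). Eif4a2 was the exception at 0.79 (SE 0.11), with 332, 297, 271 and 204 CPM in nuclei, against 178, 166 and 147 CPM in cytoplasm. Of 51 initiation factor genes 38 were lower and 6 higher (median -0.46), with Eif3h and Eif4e3 at -1.25 (SE 0.11) and -1.29 (SE 0.10).

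All 29 cytoskeletal genes tested were lower in nuclei (median -0.84), 7 of them at least 2-fold. The shares over all genes tested were 36.1% lower and 2.63% at least 2-fold lower. Actb, the usual loading control, had 1327, 1183, 1610.2 and 1406 CPM in nuclei, against 3158, 2689 and 3575 CPM in cytoplasm (log2 ratio -1.22, SE 0.13, edgeR adjusted p = 5.6e-07). Stmn2, a tubulin-binding protein of growing axons, lay at -1.13 (SE 0.13), and Ina, a neuronal intermediate filament, was nearest to 0 at -0.35 (SE 0.10) and was not called without the pEx5 cytoplasmic library (-0.27). Gapdh, of glycolysis, lay at -1.20 (SE 0.11). Of 24 cytosolic and mitochondrial chaperones 22 were lower and 0 higher (median -0.66), with Hsp90ab1 at -0.90 (SE 0.085). Proteasome subunits were lower in 38 of 45 (median -0.52), and the immunoproteasome subunit Psmb8 was the 1 higher one, at 0.45 (SE 0.088), and was not called on the RPKM scale (0.027).

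Of 93 respiratory chain and ATP synthase genes, assembly factors included, 76 were lower in nuclei and 1 higher (median -0.75), against 36.1% lower and 33.8% higher over all genes. Cycs, which encodes cytochrome c, had 47.1, 45, 67.9 and 47.9 CPM in nuclei, against 134, 119 and 117 CPM in cytoplasm (log2 ratio -1.23, SE 0.18, edgeR adjusted p = 1.9e-05). Of 78 mitochondrial ribosomal protein genes 65 were lower and 2 higher (median -0.61), with Mrpl35 lowest at -1.18 (SE 0.17) and Mrpl4 highest at 0.30 (SE 0.083), or -0.11 on the RPKM scale. Of 15 transcripts made inside mitochondria, 5 were lower, a share near the 36.1% of all genes, and 0 higher (median -0.74). mt-Co3 had 1382, 851, 1322 and 668 CPM in nuclei, against 2338, 2403 and 2192 CPM in cytoplasm (log2 ratio -1.10, SE 0.30), and both nuclear replicates 2 were under both nuclear replicates 1. Genes of the endoplasmic reticulum translocon and its chaperones counted 28 of 38 lower and 2 higher (median -0.50), with Ostc at -1.17 (SE 0.11) and Ssr4 at 0.37 (SE 0.091), or -0.021 on the RPKM scale. Solute carriers of the plasma membrane and other sites leaned the other way, with 44 of 90 higher and 15 lower (median 0.25). The sodium-proton exchanger gene Slc9a5 lay at 2.23 (SE 0.22) and the copper transporter gene Slc31a1 at -1.01 (SE 0.082).

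**Figure D4:**
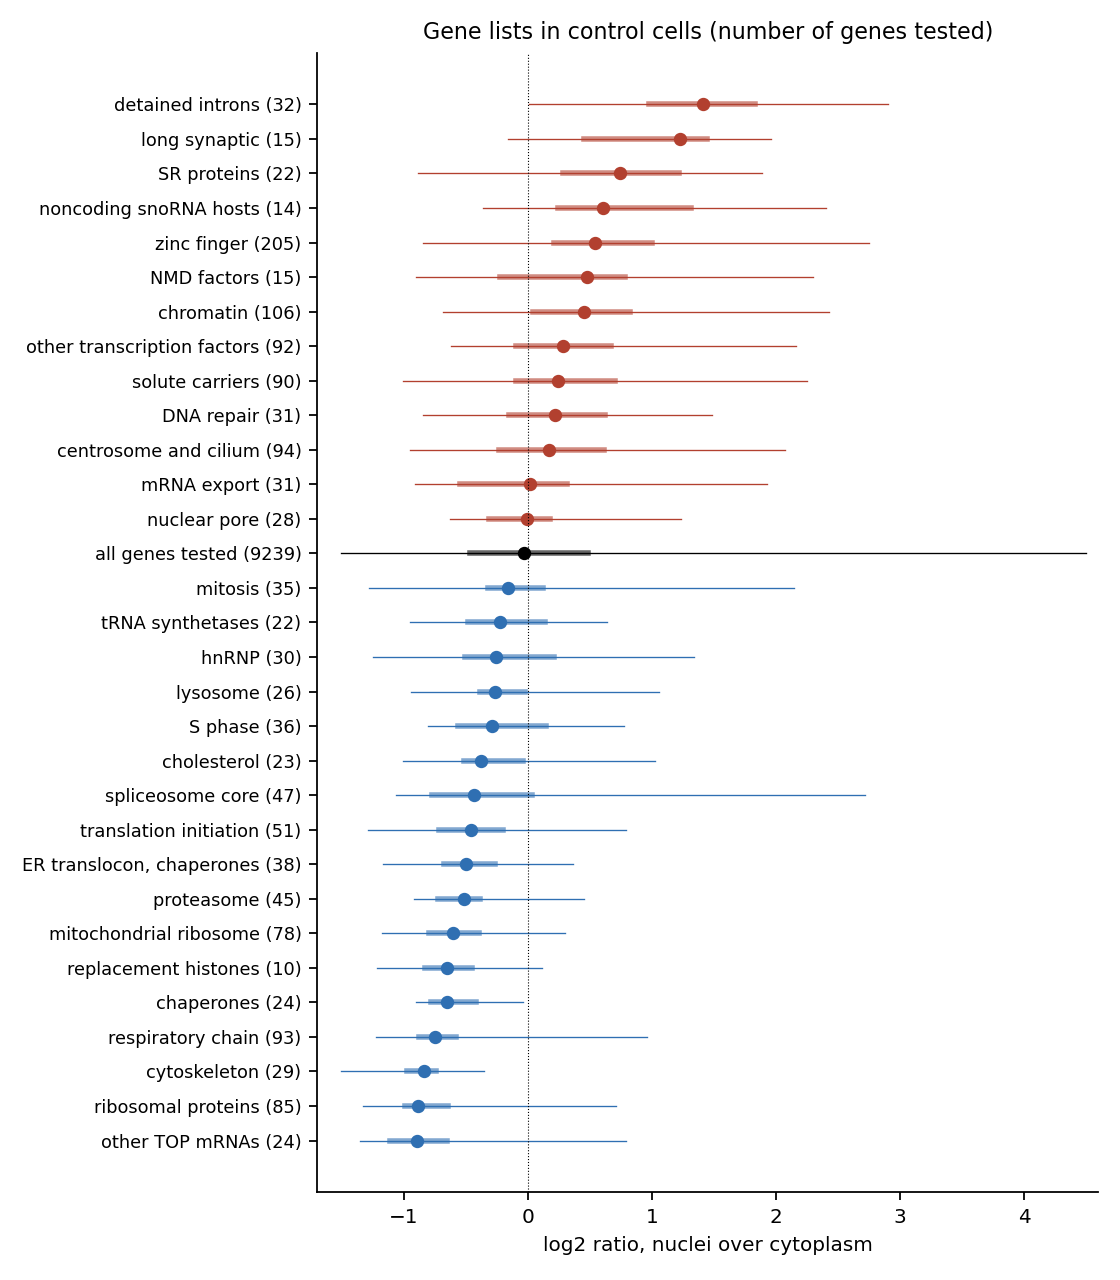
Log2 ratio of nuclei over cytoplasm (x axis) for 30 gene lists and all genes tested, with the median (point), the 25th to 75th percentile (thick line) and the full range (thin line), sorted by median and with the number of genes tested in brackets. The thin line of all genes is drawn to 4.5 and reaches 8.37, and detained-intron genes are at the top and TOP mRNAs and ribosomal proteins at the bottom.

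Histone mRNAs were listed in 2 groups. Clustered histone genes, whose main mRNAs have no poly(A) tail, were higher in 3 of 9 tested cases, a share near the 33.8% of all genes, and lower in 0, and 50 more lay outside the count table. Hist1h2ap, the most abundant, had 514, 555, 953 and 517 CPM in nuclei, against 799.7, 521 and 737 CPM in cytoplasm, so that its fractions overlapped. Hist1h4n was higher at 1.39 (SE 0.26). Replacement histone genes, whose mRNAs have a tail, counted 7 of 10 lower and 0 higher (median -0.65), with H3f3a at 145, 111, 142 and 109 CPM in nuclei, against 328, 273 and 291 CPM in cytoplasm (log2 ratio -1.22, SE 0.18). Of 18 immediate-early genes 8 were higher and 1 lower, with Nr4a1 at 1.18 (SE 0.18) and Klf10 at -0.25 (SE 0.10). Klf10 lost its call without mEx5 replicate 2 or pEx5 replicate 1 of the nuclei, or without replicate 1 of either line in cytoplasm (-0.21, -0.17, -0.20 and -0.21). Of 9 clock genes 3 were higher and 1 was lower, against 33.8% higher and 36.1% lower over all genes. Cry2 lay at 0.83 (SE 0.12), Tef at 0.77 (SE 0.075), Ciart at 0.61 (SE 0.13), not called on the RPKM scale at 0.21, and Cry1 at -0.52 (SE 0.11), so the paralogues Cry1 and Cry2 lay on opposite sides of 0. Their values were 30.5, 29.9, 23.9 and 28.5 CPM in nuclei, against 41.9, 47.6 and 36.9 CPM in cytoplasm for Cry1, and 62.4, 58.8, 68.4 and 56.6 CPM in nuclei, against 33.8, 29.7 and 38.5 CPM in cytoplasm for Cry2.

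Across the 8923 protein-coding genes of the count table the ratio followed coding length. Features were read from 1 annotated transcript per gene. It was chosen by protein-coding type, rank as principal transcript, basic set and support level, with length used only after these. In 5 equal groups by coding length, from shortest to longest, median log2 ratios were -0.60, -0.26, 0.018, 0.15 and 0.41. The median coding lengths of the groups were 516, 936, 1347, 1936 and 3390.0 bases. In the shortest group 8.12% of genes were called higher in nuclei and 70.2% lower, and in the longest 61.1% higher and 10.7% lower. The gene lists above also differed in coding length. Median coding lengths were 582 bases for mitochondrial ribosomal protein genes, 444 for cytosolic ones and 432 for the respiratory chain. They were 3396 bases for chromatin genes, 1125 for the cytoskeleton and 1629 for chaperones, against 1347 over all genes tested. A part of coding length in the list medians was not tested. Spearman's rho with the ratio, given as a description across genes that share the same 7 libraries, was 0.53 for coding length, 0.41 for transcript length, 0.39 for the number of exons, 0.19 for gene length, 0.18 for GC content, 0.11 for 3′ UTR length and 0.039 for mean level. Along GC content the medians were higher mainly at the upper end, at -0.17, -0.13, -0.10, 0.032 and 0.24 from lowest to highest GC. Both features together spread the medians from -0.65 (shortest, lowest GC) to 0.74 (longest, highest GC). In that last group of 380 genes 80.3% were higher in nuclei and 2.11% lower. Genes with more annotated transcripts that keep an intron also had higher ratios, with medians of -0.19 for none and 0.49 for 5 or more, but genes with 5 or more were also longer, at a median coding length of 2100.0 against 1134 bases. Within the 5 coding-length groups the genes were split otherwise, at 2 or more such transcripts against 0 or 1. The size of that difference therefore cannot be set against the one above. Genes with 2 or more had medians of -0.51, -0.13, 0.14, 0.22 and 0.44, and genes with 0 or 1 had -0.63, -0.32, -0.065, 0.086 and 0.36.

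**Figure D5:**
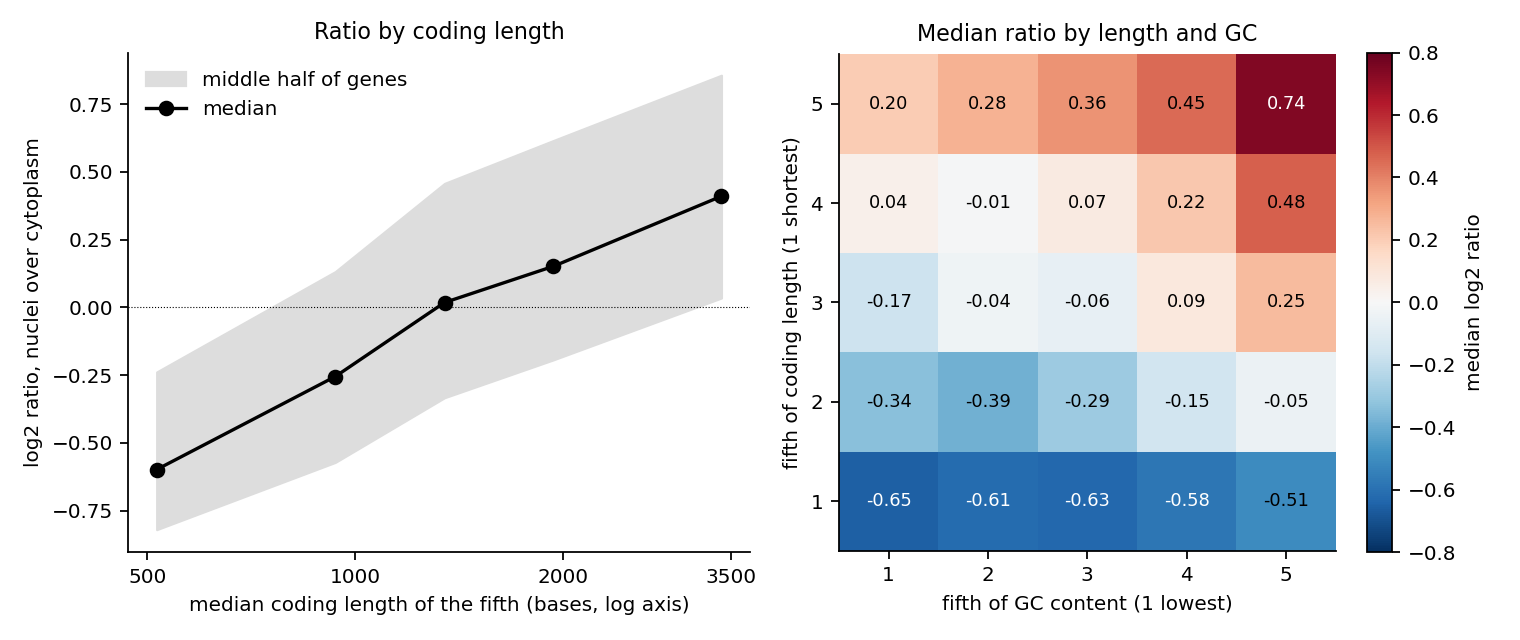
Left, log2 ratio of nuclei over cytoplasm (y axis) by coding-length group (x axis, log scale), with the median (points) and the 25th to 75th percentile of genes (grey) for protein-coding genes. Right, the median log2 ratio in each of 25 groups of coding length (y axis) and GC content (x axis), between -0.65 and 0.74.

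The authors' deposited table marks genes that overlap Chtop iCLIP, a map of where the protein Chtop contacts RNA, whose origin the labels do not name. Marked protein-coding genes (4482) had a median log2 ratio of 0.24 and unmarked ones (4441) of -0.34. Marked genes were also longer, at a median coding length of 1942 against 936 bases. Within the 5 coding-length groups the marked genes had medians of -0.18, -0.0057, 0.19, 0.23 and 0.42 and the unmarked ones -0.64, -0.35, -0.14, 0.0050 and 0.38, so the gap narrowed with length. A part of the level of the RNA in being marked was not tested. The authors' deposited table also gives a log2 ratio of nuclei over cytoplasm for control cells. It had a Spearman's rho of 0.92 with the ratio here across 9239 genes, and lists 4.48 for Malat1, 2.96 for Neat1, 3.55 for Fbxl20 and -1.33 for Tmsb10.

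Outside the count table, limma called 1144 of 3179 protein-coding genes higher in nuclei and 737 lower. Among the 2405 with at least 0.5 RPKM in all 3 cytoplasmic libraries, 580 were higher and 734 lower. That set, too, was chosen by cytoplasm among genes outside the count table, which depends on nuclear levels as well. Of its genes, 1525 lay above the median RPKM ratio of the count-table genes. The examples that follow, all higher in nuclei, were chosen after their values were seen. Mdk, a secreted growth factor (chromosome 2, 91929805 to 91932297, minus strand), had 21.3, 21.7, 29.5 and 27 RPKM in nuclei, against 0.68, 0.31 and 0.53 RPKM in cytoplasm (log2 ratio 5.35, SE 0.23, limma adjusted p = 1.6e-05). It starts 527 bases beyond the end of Dgkz, which lies on the same strand and had a log2 RPKM ratio of 1.55. Gnrh1, the gonadotropin-releasing hormone gene, had 3.79, 4.04, 8.22 and 4.24 RPKM in nuclei, against 0, 0 and 0 RPKM in cytoplasm, where 0 means only that it is listed so, and starts 2871 bases beyond Kctd9. Gdf1 had 12.2, 14.2, 15.3 and 14.2 RPKM in nuclei, against 0.86, 0 and 0 RPKM in cytoplasm and overlaps Cers1, with which it is known to share a transcript. Apoe, the lipid carrier, had 54.8, 58.9, 64.5 and 49.9 RPKM in nuclei, against 3.38, 4.32 and 2.95 RPKM in cytoplasm (log2 ratio 4.00, SE 0.18, limma adjusted p = 1.9e-05). The macrophage marker Cd68 had 6.1, 6.53, 7.6 and 7.01 RPKM in nuclei, against 0.07, 0.05 and 0.17 RPKM in cytoplasm, while the other 4 macrophage genes were each at or under 0.22 RPKM in every library. Apoe was also at 81.5 to 99.5 RPKM in the 4 knockdown nuclei against 3.27 to 5.1 in the 4 knockdown cytoplasms, and at 84.3 to 106 against 3.6 to 4.5 RPKM in the rescue libraries. Reads that run on from a neighbouring gene cannot be told apart from the gene's own in these tables.

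Total lysate of the same cultures was compared without a test. For genes at least 2-fold higher in nuclei, the mean total level lay between the 2 fractions in 667 of 1011 cases, and for genes at least 2-fold lower in 104 of 243. Over all 1011 genes the median total level lay 5.00% of the way from the cytoplasmic to the nuclear level, with the quartiles at -3.69 and 10.9%. Over the 243 lower genes the median was -4.65%, with the quartiles at -15.7 and 10.6%, so that the total level of most of them lay outside the range between the fractions. Malat1 averaged 245 CPM and Neat1 31.9 CPM in total lysate. Mitochondrial transcripts took 2.45 to 3.51% of total counts, above both fractions, and ribosomal protein mRNAs 7.56 to 8.82%, which reached above both. The total sample was lysed in another buffer than the fractions, so a sum of the fractions was not formed.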

How the data were processed

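Poly(A) RNA of fractionated N2a cells was sequenced. The authors deposited a count table and an RPKM table of all genes, and tables of log2 ratios with gene annotation. Salmon 0.14.1, DESeq2 and the mouse build mm10 are named in the submitters' processing notes. The deposited counts are whole numbers per gene, and the table keeps genes above 3 RPKM in all 35 libraries. The RPKM values are the authors' own, on which they state no strand setting in the sources used here. 1 value column that carries no sample name was not used.

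Counts were tested with edgeR 4.0.16 (quasi-likelihood test, robust, TMM scaling) in R 4.3.3. All 23 nuclear and cytoplasmic libraries were fitted by group, and the ratio is the mean over both lines of nuclear minus cytoplasmic log2 levels of the 7 control libraries. The SE is the size of the log2 ratio divided by the square root of its F value. Genes outside the count table with at least 0.5 RPKM in at least 3 control libraries were tested with limma 3.58.1 on log2(RPKM + 0.1) with line as covariate, which understates ratios of low genes. Adjusted p is after Benjamini-Hochberg, with a threshold of 0.05. The scripts were tested on simulated data. P-values measure the spread between libraries labelled as biological replicates.

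By the protocol, the nuclei and cytoplasm of a line, condition and replicate number come from the same culture. Their deviations from group means correlated at 0.50 in mEx5 control, 0.30 in mEx5 knockdown, 0.18 in mEx5 rescue, 0.50 in pEx5 knockdown and -0.089 in pEx5 rescue cultures. The block is an alternative, beside other scalings, DESeq2 1.42.0, other sets of libraries, each line alone and each control library left out.

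Members and gene lists were chosen with earlier results of these data known. Genes named are Malat1 and Neat1, the 15 highest and 15 lowest called ratios at a mean of at least 5 CPM with 1 sign in both lines (predicted-gene symbols passed over), up to 4 called members of each list with its most opposite member, and the members of short lists; not every gene of the rule is printed. Coordinates and sequences are from GENCODE M21 on mm10.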

Additional observations from a re-analysis of the deposited data

Results flagged for a closer look

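In each of the groups of 4 control nuclei, a library was looked for that lay far from the other 3, over the 123 genes named. Chance alone gives about 1 such group in 20, and 8 genes had one. Cycs had 67.9 CPM and Hist1h2ap 953 CPM in nuclei of pEx5 replicate 1, both above the other 3 nuclear libraries. Tmsb10 had 556 CPM in the same library and Gnrh1 8.22 RPKM, again the highest. Gm25777 had 1.94 CPM in nuclei of mEx5 replicate 1 and Rnu1a1 2.37 CPM in nuclei of mEx5 replicate 2, both from fewer than 100 counts. Gm26917 had 5860 CPM in nuclei of pEx5 replicate 2, the lowest of the 4. Pvt1 had 9.18 CPM in the same library, below the other 3. The nuclear pEx5 replicate 1 library had the lowest total count of the 7, and a part of depth in these values was not tested.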

How the results depend on the processing

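The counts of genes called stayed within 1.5 times of those reported under every setting tried except 6 values. On log2(RPKM + 0.1) in limma, a setting added after seeing the data, the count-table genes gave 1671 higher and 5364 lower, and 485 and 1644 at 2-fold. Mrpl4 (-0.105) and Ssr4 (-0.0214) changed sign on that scale. Outside the count table, keeping genes above 0 in 3 libraries gave 4365 higher, and fitting all RPKM genes at once, also added later, gave 2834. Leaving out 1 control library at a time gave 2910 to 3228 higher and 2981 to 3228 lower genes, 941 to 1115 and 177 to 358 at 2-fold, and 2249 to 2626 higher and 555 to 840 lower outside the count table. The 555 came without the pEx5 cytoplasmic library. DESeq2 called 3238 higher and 3313 lower.

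A replicate block by number moved the calls to 3331 up in nuclei and 3629 down (964 and 196 at 2-fold), and a block by culture to 3083 and 3294 (935 and 181). The block with the number brought Nrxn2 past the threshold, at -0.19, and changed no other call among the genes named. Of 123 genes named, 12 lost their call under at least 1 of 22 settings, and the cause was not tested. The pEx5 line has 1 cytoplasmic control library, fractions carry no spike-in in the labels, and RNAs of few counts are limited by depth.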
